A study of Mus musculus with 30 samples.

Results

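Insulin was compared with its vehicle in mouse liver at the second of 5 numbered sampling points, by poly(A) RNA sequencing of the left liver lobe. The comparison used the 6 libraries, of 30 in the series, whose titles carry point number 2: insulin replicates 1, 2 and 3 and PBS replicates 1, 2 and 3. The insulin mice received human insulin at 0.7 U/kg into the peritoneum, and the control mice received phosphate-buffered saline (PBS) by the same route. All animals were 10-week-old mice of the inbred strain C57BL/6J and had been fasted for 12 to 16 h, so both groups were in the fasted state at injection. The labels number the sampling points without giving minutes, within a period of 4 h, and the series design calls the libraries biological triplicates. The unit was FPKM, which is fragments divided by transcript length and by the mapped total of the library. The design asks how liver transcripts of insulin-injected mice stood relative to those of PBS-injected mice at this point.

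Insulin binds a receptor tyrosine kinase on hepatocytes and acts through the adaptors Irs1 and Irs2 and the kinase Akt, which excludes FOXO factors from the nucleus and so lowers transcripts of glucose production. In fasting, glucagon and adrenaline act in the opposite way: they raise cyclic AMP (cAMP), and the factor CREB, with its CRTC coactivators, then turns on genes such as the NR4A receptors, Sik1 and G6pc. Immediate early genes, which encode short-lived factors such as Fos, Jun, Egr1 and Nr4a1, respond to both kinds of signal within minutes and without new protein synthesis. Glucose itself acts through the factor ChREBP, whose known targets include Txnip and Rgs16.

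The libraries were liver. The hepatocyte transcript Alb stood at 30734, 30125 and 29048 FPKM in the insulin libraries and 30364, 28103 and 28148 FPKM in the PBS libraries. Defining markers of T cells, NK cells and B cells were near 0, with none of 11 at FPKM 1 or more in 3 libraries and Cd8a at 0 in all 6. Across genes on the log2(FPKM + 1) scale, Pearson r lay between 0.976 and 0.981 within the insulin libraries, between 0.977 and 0.981 within the PBS libraries, and between 0.962 and 0.979 from one treatment to the other. A pair of insulin libraries stood apart in particular genes. Insulin replicate 1 held more structural RNA, with Rn7sk, the small nuclear 7SK RNA, at 323, 32.4 and 24.7 FPKM in the insulin libraries against 23.4, 21.4 and 32.7 FPKM in the PBS libraries. Insulin replicate 2 held more acute phase transcript, with Saa1, serum amyloid A, at 52.8, 538 and 69.7 FPKM in the insulin libraries against 25.4, 18.5 and 16.4 FPKM in the PBS libraries. Insulin replicates 1, 2 and 3 were sequenced on lanes 2, 1 and 2, and PBS replicates 1, 2 and 3 on lanes 3, 4 and 5, and an effect of lane cannot be told apart from one of treatment.

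Of 11938 genes tested, 207 differed between insulin and PBS (1.73%), 94 of them higher with insulin (0.787%) and 113 lower (0.947%). A gene was called higher or lower where limma's moderated test gave an adjusted p below 0.05 over all genes tested. Sizes are differences of log2(FPKM + 1), insulin minus PBS, with the standard error (SE) of the fit and 3 libraries per group. The added 1 makes differences of weakly expressed genes smaller than their ratios. Among the called genes, 61 were higher and 22 lower by at least 2-fold on this scale. The 3 insulin libraries did not overlap the 3 PBS libraries for all 94 higher and 112 of the 113 lower genes, and for 24.5% of all genes tested (4.98% above and 19.6% below). Over all genes the median of these differences was -0.13. With median-ratio scaling, which brought it to 0.0042, the calls became 153 higher and 58 lower. With quantile normalization they were 158 higher and 81 lower.

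**Figure D1:**
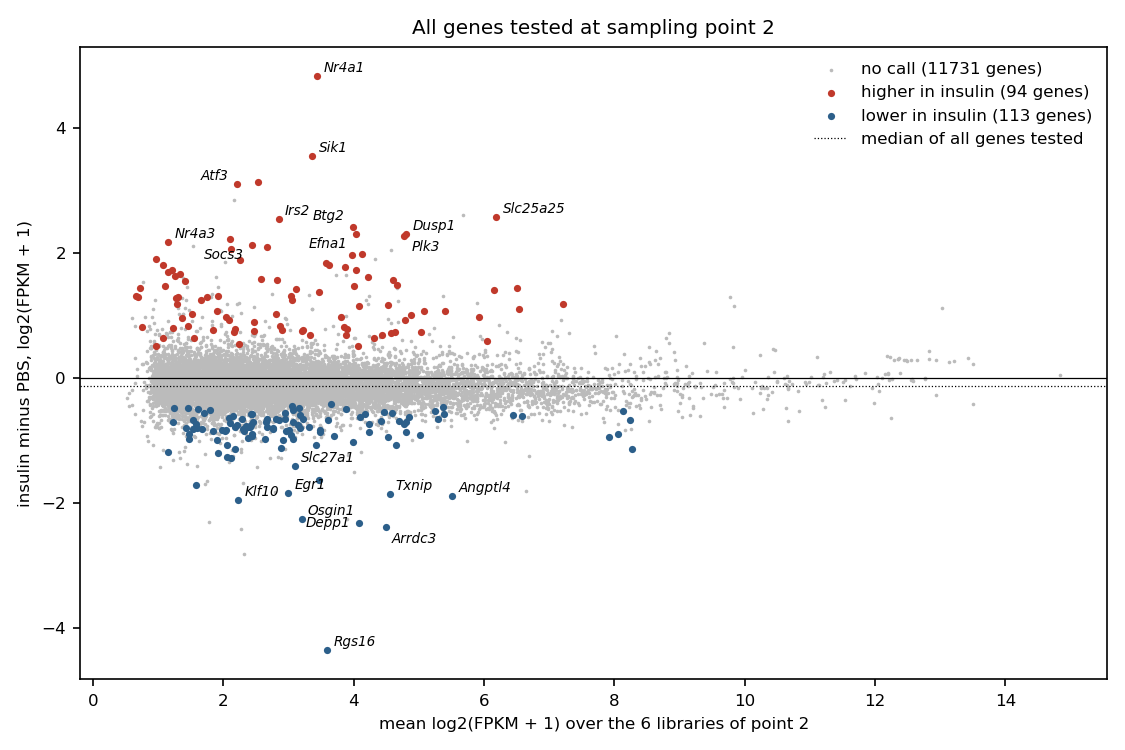
Difference between insulin and PBS (log2(FPKM + 1), vertical axis) against the mean log2(FPKM + 1) over the 6 libraries (horizontal axis) for the 11938 genes tested at sampling point 2, with 94 genes higher in insulin, 113 lower and the rest without a call. The farthest points are Nr4a1 at 4.84 and Rgs16 at -4.35, and the dotted line marks the median of all genes at -0.13.

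Insulin replicate 2 often held the highest values among the higher genes. It was the highest of the 3 insulin libraries for 70 of the 94 higher genes, against 33.2% of all genes tested, and the part of its acute phase transcripts in this was not tested. Without insulin replicate 2, 46 genes were higher and 35 lower. Leaving out insulin replicate 1, which held the structural RNA, gave 90 higher and 41 lower, and leaving out insulin replicate 3 gave 72 higher and 103 lower. Leaving out PBS replicate 1, 2 or 3 gave 105, 63 or 51 higher and 395, 30 or 34 lower. Of 23 genes with the highest or lowest differences, described below by role, 19 kept their call in every alternative in which they were tested (other pseudocount, filters, scalings and fits, and each library left out, 16 to 18 per gene). The other 4 were Arrdc3, Egr1, Slc27a1 and Nab2.

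**Figure D2:**
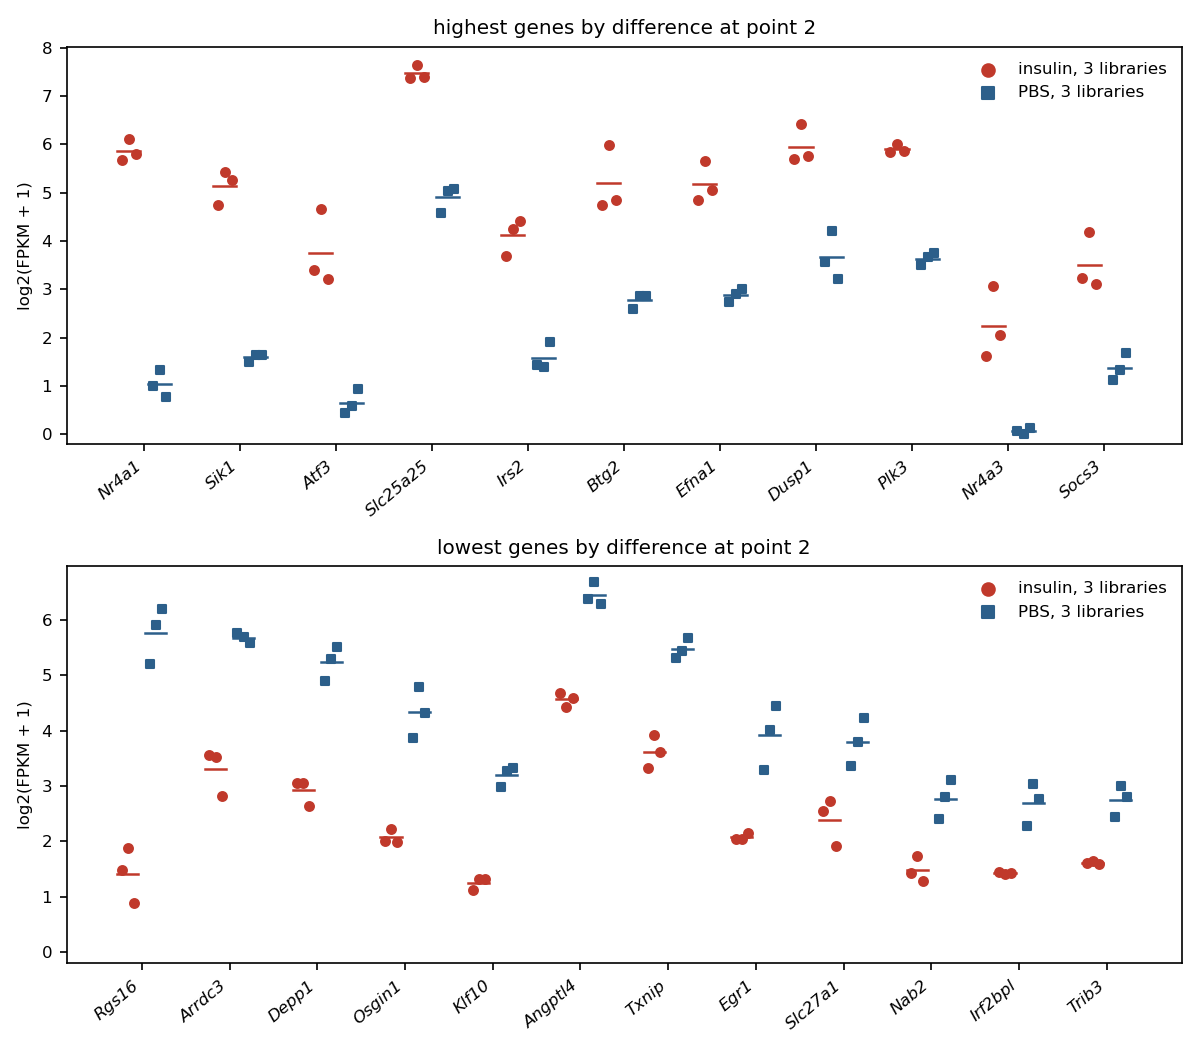
Values of log2(FPKM + 1) in each library for 11 of the genes with the highest (upper panel) and 12 with the lowest (lower panel) difference at sampling point 2, insulin as circles on the left of each gene and PBS as squares on its right, with a bar at each group mean. The genes were chosen among those whose groups did not overlap, so the separation of circles and squares is part of the choice. For Nr4a1 the insulin libraries hold 50.5, 67.9 and 54.6 FPKM against 0.981, 1.51 and 0.702 FPKM with PBS.

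The NR4A family of orphan nuclear receptors, immediate early factors that act without a known hormone ligand, was higher with insulin in all 3 of its members. Nr4a2 and Nr4a3 were below 1 FPKM in every PBS library, so they entered the test only through their insulin libraries. Both kept their calls without a filter. Nr4a1 (chr15:101254269-101274795, GRCm38), the member most abundant here, had 50.5, 67.9 and 54.6 FPKM in the insulin libraries, against 0.981, 1.51 and 0.702 FPKM in the PBS libraries. The lowest insulin library lay 33.4-fold above the highest PBS library. The difference was 4.84 ± 0.37 (SE, adjusted p = 1.26e-08), the highest of all genes tested. Nr4a3 was low in FPKM, at 2.07, 7.38 and 3.13 FPKM in the insulin libraries, against 0.0482, 0 and 0.0928 FPKM in the PBS libraries, where PBS replicate 2 had no value and was set to 0. Its difference was 2.18 ± 0.31 (SE, adjusted p = 0.00015), and the groups did not overlap. Nr4a2 had 1.88, 5.91 and 2.05 FPKM in the insulin libraries, against 0.129, 0.237 and 0 FPKM in the PBS libraries, a difference of 1.81 ± 0.34 (SE, adjusted p = 0.0037), and its call ended in 1 of 16 alternatives, without insulin replicate 2 (adjusted p = 0.0544).

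Genes known as targets of CREB and cAMP made up the group with the most calls. Of 18 members, all of which were tested, 12 were higher and 0 lower, at a median difference of 1.21 against -0.13 for all genes. The background for this list and those below is 0.787% of all genes higher and 0.947% lower. The lists were chosen with earlier results of these data known, so their counts are a description without a test. They also share members, so their counts do not add up to separate genes. Nr4a1, Dusp1, Sik1 and Fosb stand here and again in the NR4A, phosphatase, cAMP machinery or AP-1 lists. Btg2 is on both the early gene and the growth arrest list. Sik1 (chr17:31844250-31855804), the salt-inducible kinase that phosphorylates CRTC coactivators and so limits CREB signalling, had 25.7, 42.1 and 37.5 FPKM in the insulin libraries, against 1.82, 2.13 and 2.1 FPKM in the PBS libraries. The nearest libraries of the 2 groups were 12.1-fold apart, and the difference was 3.55 ± 0.41 (SE, adjusted p = 9.43e-06). Irs2, the insulin receptor adaptor that is a known target of both CREB and FOXO, had 11.9, 18.1 and 20.4 FPKM in the insulin libraries, against 1.69, 1.64 and 2.78 FPKM in the PBS libraries. Its groups were clear of each other and the difference was 2.54 ± 0.38 (SE, adjusted p = 0.000238). Crem, a CREB-family factor, was higher by 1.16 ± 0.30 at 17.5, 30.7 and 27.0 FPKM with insulin against 14.9, 9.88 and 7.50 FPKM with PBS, with insulin replicate 1 only just above PBS replicate 1. The members without a call included Pck1 at 0.02, Tat, tyrosine aminotransferase, at 0.50 and Ppargc1a, the coactivator PGC-1alpha, at -0.24. Without insulin replicate 2 the group had 7 higher members, and without PBS replicate 2 it had 8. It also had 7 under a filter at a mean of 5 FPKM, which removes low members from the test.

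The genes that make, sense or degrade cAMP held few calls. Of 33 listed, 26 were tested, with 3 higher, 0 lower and a median of -0.14. They included Sik1 and Pde4b, a cAMP phosphodiesterase. Pde4b had 2.98, 5.08 and 3.76 FPKM in the insulin libraries, against 1.38, 0.785 and 1.04 FPKM in the PBS libraries, a difference of 1.24 ± 0.27 (SE, adjusted p = 0.0143), and its call ended in 4 of 17 alternatives (without insulin replicate 2 or PBS replicate 2 or 3 among others, adjusted p = 0.0689 to 0.113). The glucagon receptor Gcgr, with 44.7, 48.0 and 50.1 FPKM in the insulin libraries, against 52.8, 80.1 and 69.7 FPKM in the PBS libraries, had no call at -0.48 ± 0.15, although its insulin libraries lay below its PBS libraries. Creb1 (-0.38), Crtc2 (-0.21) and the catalytic subunit of protein kinase A, Prkaca (-0.14), had no call either.

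Promoters were read for the motif that CREB binds. RefSeq promoter windows (GRCm38.p6, 250 bases before to 50 after the start) matched 67 of the 94 higher genes, 85 of the 113 lower genes and 7847 of the 11938 tested genes by symbol. The full palindrome TGACGTCA stood in the windows of 10 higher genes (14.9%) and 4 lower genes (4.71%), against 287 tested genes (3.66%). Its core TGACG, on either strand and also counted inside the palindrome, stood in 59.7% of the higher genes and 28.2% of the lower genes, against 36.6% of tested genes. A gene could have several windows and counted if any of them held the motif. The 67 higher genes had 88 windows, of which 10 (11.4%) held the palindrome, against 3.06% of the 10044 windows of tested genes. These shares are a description without a test, and a match is not a bound site. The 10 higher genes with the palindrome were Ankrd13c, Btg2, Ccnl1, Dusp1, Plk2, Ppp1r15a, Rcan1, Slc25a25, Snhg15 and Wsb1. Rcan1 and Slc25a25 also had a window without it. The Slc25a25, Dusp1 and Nr4a1 windows printed below lie inside the annotated genes. For Rcan1, the window that holds the palindrome lies downstream of a window without it. The 5 windows of 60 bases below were chosen because they hold the palindrome in genes described here. They stand after 250 bases of the Nr4a1 promoter, which holds no full palindrome but 4 cores on the opposite strand (CGTCA as read here).
Capitals mark the palindrome, or the core for Nr4a1, and all sequences run 5′ to 3′ on the strand of the gene and end upstream of the start.
Nr4a1: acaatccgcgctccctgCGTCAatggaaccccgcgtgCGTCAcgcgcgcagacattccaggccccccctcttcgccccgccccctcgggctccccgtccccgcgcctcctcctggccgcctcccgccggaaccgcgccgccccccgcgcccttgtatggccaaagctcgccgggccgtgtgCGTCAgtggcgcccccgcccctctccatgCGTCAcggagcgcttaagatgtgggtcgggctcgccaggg
Btg2: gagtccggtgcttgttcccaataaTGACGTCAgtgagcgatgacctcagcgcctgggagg
Dusp1: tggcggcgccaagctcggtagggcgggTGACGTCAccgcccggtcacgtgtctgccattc
Slc25a25: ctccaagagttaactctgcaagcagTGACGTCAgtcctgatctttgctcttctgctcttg
Rcan1: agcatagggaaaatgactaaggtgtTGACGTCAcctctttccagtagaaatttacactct
Plk2: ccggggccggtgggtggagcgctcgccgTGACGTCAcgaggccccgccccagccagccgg
These lie at chr15:101266596-101266845 on the plus strand for Nr4a1, chr1:134079286-134079345 on the minus strand for Btg2, chr17:26508583-26508642 on the minus strand for Dusp1, chr2:32424182-32424241 on the minus strand for Slc25a25, chr16:92400219-92400278 on the minus strand for Rcan1 and chr13:110394954-110395013 on the plus strand for Plk2. The E-box CACGTG stood in 16.4% of higher and 12.9% of lower genes, against 12.1% of tested genes. The AP-1 motif TGANTCA stood in 10.4% of higher and 9.41% of lower genes, against 6.23%, and the FOXO motif GTAAACA in 4.48% of higher and 4.71% of lower genes, against 3.39%. All motifs were searched on both strands. The NRF2 motif TGACNNNGC, whose first bases overlap the CREB core, stood in 29.9% of higher and 25.9% of lower genes, against 17.2%.

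The AP-1 and ATF factors, subunits that pair to bind AP-1 sites, were higher in 6 of 9 tested members and lower in 0, with a median difference of 1.47. Atf3, a stress-induced repressor of this family, had 9.53, 24.4 and 8.28 FPKM in the insulin libraries, against 0.358, 0.497 and 0.914 FPKM in the PBS libraries. Insulin replicate 2 was far above the other two insulin libraries, the lowest insulin library was 9.06-fold above the highest PBS library, and the difference was 3.11 ± 0.37 (SE, adjusted p = 1.93e-05). Fos had 5.81, 14.5 and 5.69 FPKM in the insulin libraries, against 0.992, 1.26 and 1.17 FPKM in the PBS libraries and Fosb had 1.95, 5.41 and 1.81 FPKM in the insulin libraries, against 0, 0.0233 and 0 FPKM in the PBS libraries. Their differences were 2.06 ± 0.32 and 1.9 ± 0.26 (adjusted p = 0.000483 and 9.86e-05), and Fosb had no value in PBS replicates 1 and 3, which were set to 0. Fosl2 was higher by 2.1 ± 0.32 and Jun by 1.32 ± 0.29 (adjusted p = 0.000238 and 0.0159). Junb, a subunit that can oppose Jun, had 23.0, 44.6 and 16.4 FPKM in the insulin libraries, against 5.48, 11.3 and 10.1 FPKM in the PBS libraries, a difference of 1.47 ± 0.36 (SE, adjusted p = 0.0319), and a call that ended in 8 of 18 alternatives (without insulin replicate 1 or 2 or PBS replicate 1, 2 or 3 among others, adjusted p = 0.053 to 0.207). Jund (-0.04), Mafk (0.30) and Maff (1.35, adjusted p = 0.0714) had no call.

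Egr1 went the other way. This zinc finger factor, another classic immediate early gene, was lower with insulin, at 3.11, 3.14 and 3.42 FPKM in the insulin libraries, against 8.76, 15.2 and 20.9 FPKM in the PBS libraries. The PBS values spread widely, every insulin library was below them, and the difference of -1.84 ± 0.44 (SE, adjusted p = 0.029) lost its call in 8 of 18 alternatives (without insulin replicate 1, 2 or 3 or PBS replicate 2 or 3 among others, adjusted p = 0.0619 to 0.192). Nab2, a corepressor that binds EGR factors and is itself an EGR target, was lower (-1.28 ± 0.28) at 1.70, 2.32 and 1.45 FPKM with insulin against 4.27, 5.96 and 7.59 FPKM with PBS, and its call ended in 6 of 17 alternatives (without insulin replicate 1 or 3 or PBS replicate 2 or 3 among others, adjusted p = 0.0592 to 0.125). Within the 12 tested EGR and Kruppel-like factors 0 were higher and 3 lower. Klf10, a repressor known both as a TGF-beta-induced and as a glucose-responsive gene in liver, had 1.18, 1.49 and 1.50 FPKM in the insulin libraries, against 6.96, 8.69 and 9.04 FPKM in the PBS libraries. The groups were 4.63-fold apart at their nearest libraries, with a difference of -1.94 ± 0.24 (SE, adjusted p = 2.92e-05), and Klf11, its closest relative, was lower, at -0.99 ± 0.19 (SE, adjusted p = 0.00528). Klf15 (-0.11) and Klf9 (-0.16), both abundant in liver, had no call.

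Of 17 tested members of a list of other immediate early genes, 5 were higher and 0 lower. They were Btg2, Sgk1, Ccn1, Csrnp1 and Myc. Btg2, an antiproliferative adaptor of the mRNA deadenylation machinery whose promoter holds the palindrome above, had 25.9, 62.6 and 27.7 FPKM in the insulin libraries, against 5.05, 6.30 and 6.22 FPKM in the PBS libraries. Insulin replicate 2 was again far above the other insulin libraries, and the difference was 2.42 ± 0.44 (SE, adjusted p = 0.00245). Sgk1, a kinase related to Akt, was higher by 1.73 ± 0.22 (SE, adjusted p = 2.92e-05) and Ccn1, a secreted matrix protein listed under its older name Cyr61, by 1.58 ± 0.23 (SE, adjusted p = 0.000234). Csrnp1 was higher by 1.57 ± 0.25 and Myc by 1.02 ± 0.24 (adjusted p = 0.00071 and 0.0224). Ier2 (-0.04), Zfp36 (0.05), Rhob (0.01) and Errfi1 (-0.07), all of them early genes in other settings, had no call.

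The phosphatases that switch off MAP kinases were higher in 3 of 9 tested members of their list, and 0 were lower. Dusp1 had 50.8, 84.9 and 52.8 FPKM in the insulin libraries, against 10.8, 17.5 and 8.21 FPKM in the PBS libraries. The lowest insulin library was 2.90-fold above the highest PBS library, and the difference was 2.30 ± 0.26 (SE, adjusted p = 6.87e-06). Dusp6, a cytoplasmic phosphatase of ERK, had 37.4, 49.5 and 37.9 FPKM with insulin against 18.1, 11.6 and 13.2 FPKM with PBS and was higher by 1.49 ± 0.26 (SE, adjusted p = 0.0014). Dusp4, a nuclear one, was higher by 1.29 ± 0.29 at 2.97, 6.78 and 3.74 FPKM with insulin against 0.833, 1.17 and 1.51 FPKM with PBS, and its call ended in 5 of 17 alternatives (without insulin replicate 2 or PBS replicate 2 among others, adjusted p = 0.0645 to 0.151). The Sprouty and Spred inhibitors of the same pathway had no call, at -0.23 for Spry4, 0.05 for Spry1, 0.00 for Spred1 and -0.21 for Spred2.

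Growth arrest and p53-linked genes were higher in 5 of 15 tested members and lower in 0, although the median of the list was -0.13, the same as that of all genes. Plk3, a polo-like kinase of the stress response, had 56.5, 63.2 and 57.2 FPKM in the insulin libraries, against 10.3, 11.6 and 12.4 FPKM in the PBS libraries. It was among the tightest of the higher genes, with each group inside a narrow range, and differed by 2.27 ± 0.37 (SE, adjusted p = 0.000875). Trp53inp1, a p53-induced nuclear protein, had 123, 123 and 167 FPKM with insulin against 72.3, 53.9 and 62.5 FPKM with PBS and was higher by 1.11 ± 0.19. Gadd45g (1.58 ± 0.33) and Plk2 (0.98 ± 0.20) were higher too, and the Gadd45g call ended in 2 of 18 alternatives, without insulin replicate 2 or PBS replicate 2 (adjusted p = 0.0526 to 0.0598). The Plk2 call ended in 2 of 17 alternatives (without insulin replicate 2 among others, adjusted p = 0.0823). The p53 target Cdkn1a (-0.33), Mdm2 (0.40) and Bbc3 (-0.84) had no call. Trp53 itself, which is not on this list, was lower (-0.77 ± 0.19) at 3.05, 2.90 and 2.78 FPKM with insulin against 5.21, 5.80 and 6.04 FPKM with PBS.

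Efna1, Slc25a25 and Socs3, also among the highest genes, encode a membrane ligand, a carrier and a feedback inhibitor. Efna1, ephrin-A1, a surface ligand of Eph receptors, had 27.7, 49.7 and 32.4 FPKM in the insulin libraries, against 5.62, 6.52 and 7.04 FPKM in the PBS libraries. The PBS libraries were close together, the lowest insulin library was 3.93-fold above the highest of them, and the difference was 2.31 ± 0.33 (SE, adjusted p = 0.000154). Of the 13 tested Eph, ErbB and growth factor receptor genes it was the only one higher, and Erbb3, a receptor of neuregulins, was lower (-0.68 ± 0.18), a call that ended in 10 of 18 alternatives (without insulin replicate 1, 2 or 3 or PBS replicate 2 or 3 among others, adjusted p = 0.0888 to 0.183). Slc25a25, a calcium-regulated carrier of ATP-Mg and phosphate across the inner mitochondrial membrane, had the highest FPKM of the leading genes on this side, with 166, 198 and 168 FPKM in the insulin libraries, against 23.0, 31.9 and 33.0 FPKM in the PBS libraries. It was higher by 2.57 ± 0.44 (SE, adjusted p = 0.00129). Socs3, which blocks cytokine receptor and insulin receptor signalling, had 8.43, 17.1 and 7.68 FPKM in the insulin libraries, against 1.18, 1.50 and 2.21 FPKM in the PBS libraries and was higher by 2.13 ± 0.33 (SE, adjusted p = 0.000305). The other 18 tested genes of its list of SOCS, STAT3 and acute phase genes had no call, among them Stat3 (0.01), Fgb (-0.19) and Saa1 (2.61, adjusted p = 0.146).

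On the lower side, Rgs16 (chr1:153740349-153745468), which speeds the shut-off of G proteins and is a known glucose-responsive gene of liver, had 1.80, 2.68 and 0.859 FPKM in the insulin libraries, against 36.0, 59.5 and 72.3 FPKM in the PBS libraries. The highest insulin library was 13.4-fold below the lowest PBS library, and the difference of -4.35 ± 0.47 (SE, adjusted p = 5.11e-06) was the lowest of all genes called. Txnip, an alpha-arrestin that binds thioredoxin and restrains glucose uptake, had 9.08, 14.1 and 11.3 FPKM in the insulin libraries, against 38.9, 42.4 and 50.1 FPKM in the PBS libraries. The highest insulin library was 2.76-fold below the lowest PBS library, and the difference was -1.85 ± 0.16 (SE, adjusted p = 7.33e-08). Arrdc3, another alpha-arrestin, had 10.8, 10.6 and 6.09 FPKM in the insulin libraries, against 53.2, 51.0 and 46.8 FPKM in the PBS libraries, a difference of -2.37 ± 0.50 (SE, adjusted p = 0.0098). Its call ended in 1 of 18 alternatives, without insulin replicate 3 (adjusted p = 0.0523). Arrdc4, the closest relative of Txnip, was lower (-0.83 ± 0.20) at 2.46, 1.62 and 2.24 FPKM with insulin against 4.36, 3.81 and 5.36 FPKM with PBS, and lost its call in 8 of 17 alternatives (without insulin replicate 2 or 3 or PBS replicate 2 or 3 among others, adjusted p = 0.0515 to 0.183).

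Of a list of 22 ChREBP targets, all tested, 4 were lower (Rgs16, Klf10, Txnip and Arrdc4) and 1 higher (G6pc). Apart from G6pc, its enzymes of lipid and sugar metabolism had no call, with Pklr, liver pyruvate kinase, at -0.28, Fasn at -0.43, Acly at 0.25 and Thrsp at 0.11. The median of the list was -0.21.

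Among genes that FOXO factors or insulin are known to control, 2 of 17 tested were higher (Irs2 and G6pc) and 2 lower (Depp1 and Txnip), at a median of -0.08. Depp1, a FOXO target induced by fasting, had 7.37, 7.32 and 5.25 FPKM in the insulin libraries, against 28.7, 38.3 and 44.7 FPKM in the PBS libraries. The groups were 3.90-fold apart at their nearest libraries, and the difference was -2.31 ± 0.31 (SE, adjusted p = 7.3e-05). Pdk4, the pyruvate dehydrogenase kinase of fasting, had 1.83, 1.92 and 2.06 FPKM with insulin against 3.24, 3.20 and 5.63 FPKM with PBS and no call at -0.74 ± 0.26, although the groups did not overlap. The FOXO genes themselves had differences of 0.26 for Foxo1, 0.05 for Foxo3 and 0.08 for Foxo4, without a call.

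Textbook targets of insulin in liver were looked at whether or not they passed. Irs2, described above, and G6pc passed, both higher with insulin. G6pc, which releases free glucose from glucose 6-phosphate, had 171, 255 and 256 FPKM in the insulin libraries, against 89.4, 96.0 and 108 FPKM in the PBS libraries. Its groups did not overlap, insulin replicate 1 was the nearest to PBS, and the difference of 1.19 ± 0.29 (SE, adjusted p = 0.0347) lost its call in 7 of 18 alternatives (without insulin replicate 2 or 3 or PBS replicate 1, 2 or 3 among others, adjusted p = 0.0565 to 0.161). Pck1, phosphoenolpyruvate carboxykinase, had 1272, 1377 and 1315 FPKM in the insulin libraries, against 1303, 1273 and 1324 FPKM in the PBS libraries. The groups overlapped and the difference was 0.02 ± 0.16 (SE, adjusted p = 0.955). Igfbp1, which liver secretes to bind insulin-like growth factors, had 142, 178 and 213 FPKM in the insulin libraries, against 101, 96.4 and 135 FPKM in the PBS libraries. The insulin libraries were all above the PBS libraries, at 0.67 ± 0.55 (SE, adjusted p = 0.512), where the standard error comes from the spread of the gene over all 30 libraries. Srebf1, the factor of fatty acid synthesis, stood at 0.05 ± 0.24 (adjusted p = 0.927).

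The enzyme lists of these pathways held few calls at point 2. Of 16 tested gluconeogenesis genes 1 was higher (G6pc) and 0 lower. Of 21 genes of glycolysis and pyruvate entry 0 were higher and 1 lower, Pdp2, the phosphatase that activates pyruvate dehydrogenase, at 4.28, 4.62 and 4.91 FPKM with insulin against 6.90, 8.19 and 8.49 FPKM with PBS. Its difference was -0.66 ± 0.11 (SE, adjusted p = 0.00133), and the call ended in 1 of 18 alternatives, the fit of the 6 libraries alone. Of 13 glycogen genes the one called was Phkg2, the catalytic subunit of liver phosphorylase kinase, lower (-0.65 ± 0.15), and this ended in 9 of 18 alternatives (without insulin replicate 1 or 2 or PBS replicate 1 or 3 among others, adjusted p = 0.0615 to 0.165). No gene of 19 in fatty acid and triglyceride synthesis and none of 24 in sterol synthesis and uptake passed limma's test, where 2280 of all 11938 genes had an unadjusted p under 0.05. The member nearest to a call was Acacb, mitochondrial acetyl-CoA carboxylase, in the first list (-0.65, adjusted p = 0.14). Scd1, stearoyl-CoA desaturase, had 625, 626 and 442 FPKM with insulin against 445, 325 and 373 FPKM with PBS.

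Fatty acid oxidation, ketogenesis and PPARalpha targets, the programme of the fasted liver, were lower in 3 of 32 tested members and higher in 0. Their median was -0.37, and 17 of 32 had all insulin libraries below all PBS libraries, against 19.6% of all genes. Angptl4 (chr17:33773750-33781830), a secreted inhibitor of lipoprotein lipase, had 24.6, 20.6 and 23.2 FPKM in the insulin libraries, against 82.8, 102 and 77.6 FPKM in the PBS libraries. Both groups were tight and far apart, and the difference of -1.89 ± 0.14 (SE, adjusted p = 1.26e-08) shared the smallest adjusted p of all genes with Nr4a1. Plin2, which coats lipid droplets, had 169, 146 and 211 FPKM in the insulin libraries, against 294, 338 and 370.2 FPKM in the PBS libraries and was lower, at -0.94 ± 0.22 (SE, adjusted p = 0.0254), a call that ended in 7 of 18 alternatives (without insulin replicate 1 or 2 or PBS replicate 2 or 3 among others, adjusted p = 0.0851 to 0.154). Bdh1, which interconverts the ketone bodies, was lower, at -0.61 ± 0.12 (SE, adjusted p = 0.005) at 70.6, 85.4 and 74.1 FPKM with insulin against 104, 134 and 115 FPKM with PBS, and its call ended in 3 of 18 alternatives (without PBS replicate 2 among others, adjusted p = 0.0578). Cpt1a, which admits fatty acids to mitochondria, had 94.1, 113 and 130.2 FPKM with insulin against 136, 163 and 181 FPKM with PBS, without a call. The summed level of the list was 11232 to 13285 FPKM with insulin and 13870 to 17839 FPKM with PBS, without overlap. Lower sums without overlap were not particular to this list. Hepatocyte identity genes summed to 42147 to 42862 FPKM with insulin and 43989 to 44868 FPKM with PBS. All insulin libraries lay below all PBS libraries for 9 of 18 of them and 5 of 9 periportal genes. The urea cycle, bile acid, autophagy and periportal lists also had lower sums without overlap. So did the insulin-like growth factor, EGR and Kruppel-like, and interferon lists. Sums of the NR4A, CREB target, AP-1 and ATF, MAP kinase phosphatase and growth arrest lists lay above PBS without overlap. Without PBS replicate 1 the fatty acid oxidation list had 8 lower members, and leaving out PBS replicate 2 it had 1. Slc27a1, a fatty acid transport protein outside the list, had 4.82, 5.63 and 2.75 FPKM in the insulin libraries, against 9.25, 12.9 and 17.9 FPKM in the PBS libraries. It was lower (-1.41 ± 0.35), and its call ended in 9 of 18 alternatives (without insulin replicate 1, 2 or 3 or PBS replicate 2 or 3 among others, adjusted p = 0.061 to 0.208).

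Osgin1 was the one member called among 16 tested NRF2 antioxidant genes. Known as an oxidative stress-induced growth inhibitor, it had 3.03, 3.67 and 2.97 FPKM in the insulin libraries, against 13.6, 26.8 and 19.0 FPKM in the PBS libraries. The insulin libraries lay close together and 3.70-fold or more below the PBS libraries, and the difference was -2.26 ± 0.31 (SE, adjusted p = 0.000119). The more usual NRF2 targets had no call, with Nqo1 at -0.31, Gclm at -0.09, Hmox1 at -0.16 and Txnrd1 at -0.17. Trib3, a pseudokinase that binds Akt and is a target of ATF4, had 2.06, 2.12 and 2.01 FPKM in the insulin libraries, against 4.42, 7.03 and 5.99 FPKM in the PBS libraries. The insulin libraries hardly varied, and the difference was -1.14 ± 0.21 (SE, adjusted p = 0.00307). In the same list of 13 tested ATF4 and amino acid response genes 2 were higher: Atf4 itself, with 43.3, 40.2 and 40.2 FPKM with insulin against 24.0, 27.3 and 22.0 FPKM with PBS, and Ppp1r15a, a subunit that restores translation, with 8.78, 9.60 and 8.04 FPKM with insulin against 3.78, 5.34 and 4.53 FPKM with PBS. The Atf4 call ended in 3 of 18 alternatives, without insulin replicate 1 or 2 or PBS replicate 3 (adjusted p = 0.0544 to 0.102), and that of Ppp1r15a in 6 of 18 alternatives (without insulin replicate 1 or 2 or PBS replicate 1 or 3 among others, adjusted p = 0.0625 to 0.141). Irf2bpl, a protein related to an interferon factor corepressor, was lower, at -1.26 ± 0.21 (SE, adjusted p = 0.00099) at 1.73, 1.64 and 1.71 FPKM with insulin against 3.86, 7.22 and 5.78 FPKM with PBS.

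**Figure D3:**
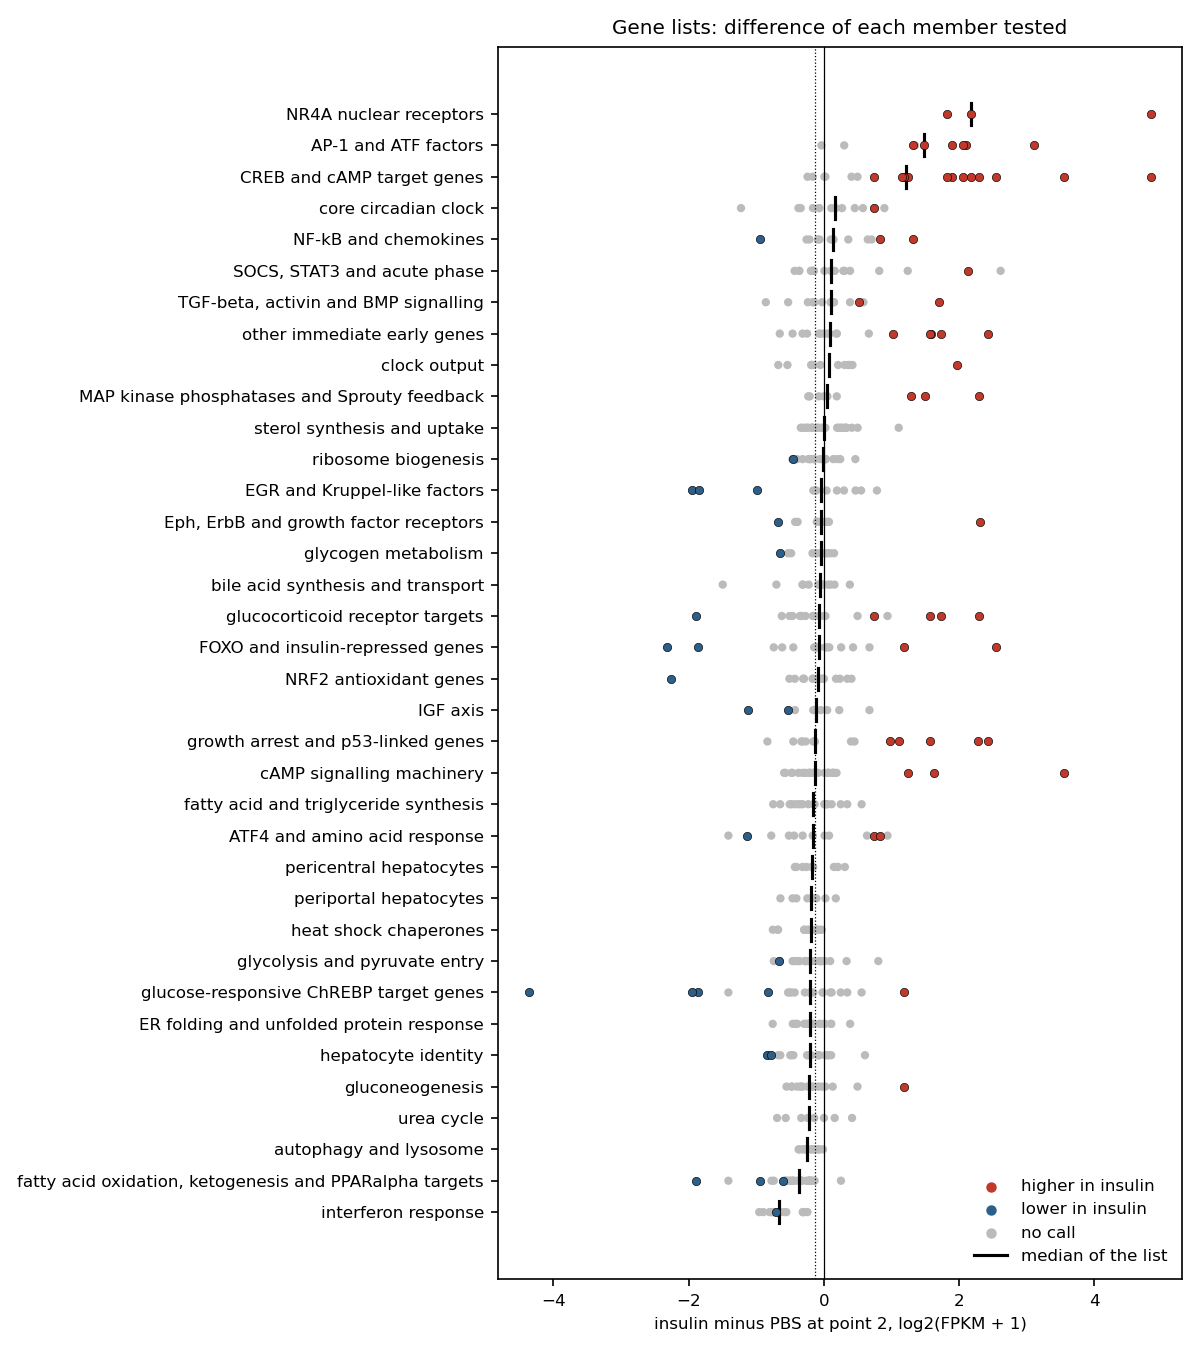
Difference between insulin and PBS at sampling point 2 (log2(FPKM + 1), horizontal axis) of every tested member of the liver and response gene lists with at least 3 tested members, ordered by the median of the list (black bar). Red points are members called higher, blue points members called lower and grey points members without a call, and the dotted line is the median of all genes at -0.13. The NR4A, AP-1 and CREB lists stand at the top with medians of 2.18, 1.47 and 1.21, and the interferon list at the bottom at -0.67. The CREB list shares members with the NR4A and AP-1 lists.

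In the insulin-like growth factor axis 2 of 9 tested genes were lower and 0 higher: Igfbp2, a binding protein, with 178, 216 and 230.2 FPKM in the insulin libraries, against 365, 507 and 505 FPKM in the PBS libraries, and Igfbp4, with 227, 265 and 208 FPKM in the insulin libraries, against 301, 379 and 331 FPKM in the PBS libraries. The Igfbp2 groups lay far apart and the Igfbp4 groups closer, with differences of -1.13 ± 0.25 and -0.53 ± 0.12. These calls ended in 5 of 18 alternatives (without insulin replicate 1 or 2 or PBS replicate 2 or 3 among others, adjusted p = 0.0559 to 0.0961) for Igfbp2, and in 8 of 18 alternatives (without insulin replicate 1 or 3 or PBS replicate 2 or 3 among others, adjusted p = 0.0751 to 0.157) for Igfbp4. Of 14 tested genes of TGF-beta and activin signalling 2 were higher, Fst, follistatin, which binds activins, by 1.70 ± 0.37 and Inhba, an activin subunit, by 0.52 ± 0.13. Inhba had 1.07, 1.52 and 1.49 FPKM with insulin against 0.729, 0.752 and 0.462 FPKM with PBS. Fst and Inhba were below 1 FPKM in every PBS library, so they entered the test only through their insulin libraries. The Fst call ended in 4 of 17 alternatives (without insulin replicate 2 or 3 or PBS replicate 3 among others, adjusted p = 0.0655 to 0.093), and the Inhba call in 8 of 17 alternatives (without insulin replicate 2 or 3 or PBS replicate 2 or 3 among others, adjusted p = 0.0811 to 0.22). Per1 was the one clock gene of 15 with a call, higher by 0.75 ± 0.16 at 10.7, 11.8 and 10.4 FPKM with insulin against 5.79, 6.07 and 6.54 FPKM with PBS, and this ended in 2 of 18 alternatives, without insulin replicate 2 or PBS replicate 2 (adjusted p = 0.0547 to 0.0823). Nfil3, a repressor of clock output genes, was higher by 1.97 ± 0.27 (SE, adjusted p = 9.19e-05) at 21.6, 34.9 and 36.1 FPKM with insulin against 9.21, 6.10 and 5.91 FPKM with PBS, while Dbp (-0.67) and Nr1d1 (-1.23, adjusted p = 0.0604) had no call. Of 19 tested glucocorticoid receptor targets 4 were higher (Dusp1, Sgk1, Gadd45g and Per1) and Angptl4 was lower. Over all genes 0.787% were higher and 0.947% lower. Dusp1, Sgk1, Per1 and Angptl4 also stand on other lists. Fkbp5 (-0.46) and Tsc22d3 (-0.62), which respond to glucocorticoids in many tissues, had no call.

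Of 17 tested interferon response genes 0 were higher and 1 lower, Stat2, a signal transducer of type I interferons, at 4.97, 5.85 and 5.83 FPKM with insulin against 10.2, 8.91 and 9.94 FPKM with PBS. Its difference was -0.71 ± 0.17 (SE, adjusted p = 0.0319), and the call ended in 10 of 18 alternatives (without insulin replicate 1, 2 or 3 or PBS replicate 1, 2 or 3 among others, adjusted p = 0.0537 to 0.143). The median of the list was -0.67, 12 of 17 had all insulin libraries below all PBS libraries, against 19.6% of all genes, and the summed level was 45.8 to 65.4 FPKM with insulin and 75.8 to 110 FPKM with PBS. Isg15 had 1.30, 4.83 and 3.81 FPKM with insulin against 4.75, 8.67 and 7.48 FPKM with PBS and Irf1 3.11, 4.26 and 3.21 FPKM with insulin against 5.41, 8.09 and 6.73 FPKM with PBS, with insulin replicate 1 the lowest insulin library for both. Without PBS replicate 1, 6 members were lower, and with either scaling 0 were. In the NF-kB list of 13 tested genes 2 were higher, Il1b, interleukin 1 beta, by 1.31 ± 0.25 (SE, adjusted p = 0.00394) and the subunit Rel by 0.83 ± 0.16 (SE, adjusted p = 0.00444), and 1 was lower, Nfkbia, the inhibitor IkB-alpha, at -0.95 ± 0.16 (SE, adjusted p = 0.00101). Il1b had 5.18, 5.05 and 4.66 FPKM in the insulin libraries, against 1.14, 2.27 and 0.976 FPKM in the PBS libraries, clear of each other, and its call ended with a pseudocount of 0.1.

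Several programmes had no call in any tested member by limma: unfolded protein response (19 genes, median -0.21), heat shock chaperones (14, -0.20), bile acid synthesis and transport (13, -0.06), urea cycle (9, -0.22), autophagy and lysosome (17, -0.25), and pericentral and periportal hepatocyte genes (10 and 9, -0.17 and -0.19). The nearest to a call were Nr0b2, the bile acid-induced repressor SHP, at 8.81, 7.15 and 9.90 FPKM with insulin against 17.9, 41.0 and 23.6 FPKM with PBS (adjusted p = 0.0607), and Slc25a15, the mitochondrial ornithine carrier of the urea cycle, at 136, 147 and 169.9 FPKM with insulin against 124, 105 and 109 FPKM with PBS (adjusted p = 0.0607). Nr0b2 was called in 3 of the alternatives and Slc25a15 in 4. In the other lists the nearest were the chaperones Hspb1 (-0.76) and Calr (-0.46), the autophagy subunit Atg14 (-0.37), the pericentral glutamine synthetase Glul (-0.32) and the periportal histidase Hal (-0.64), with adjusted p-values of 0.105, 0.141, 0.143, 0.216 and 0.129. Of 21 tested ribosome biogenesis genes Noc2l was lower (-0.45 ± 0.10), a call that ended in 7 of 18 alternatives (without insulin replicate 1 or PBS replicate 2 or 3 among others, adjusted p = 0.0724 to 0.14). Among 18 hepatocyte identity genes 0 were higher and 2 lower, among them the transcription factor Foxa2 (-0.84 ± 0.19), whose call ended in 7 of 17 alternatives (without insulin replicate 2 or 3 or PBS replicate 2 or 3 among others, adjusted p = 0.0506 to 0.138).

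Markers of other liver cells were compared as whole lists. Kupffer cell markers had 0 calls among 11 tested, and summed to 120 to 171 FPKM with insulin and 154 to 181 FPKM with PBS. Sinusoidal endothelial markers summed to 80.7 to 94.6 FPKM with insulin and 91.9 to 115 FPKM with PBS, and 1 of 11 was lower, Gpr182, by -0.61 ± 0.12, a call that ended in 2 of 17 alternatives (without PBS replicate 2 among others, adjusted p = 0.0795). Stellate cell and fibroblast markers had 0 calls among 8 tested (135 to 174 FPKM with insulin, 154 to 175 FPKM with PBS). Erythroid genes had 0 among 5 (306 to 395 FPKM with insulin, 219 to 335 FPKM with PBS). Among 5 neutrophil markers with entries, 2 were tested, without a call, and their sums were at most 2.75 FPKM with insulin and 5.04 FPKM with PBS. Of the cholangiocyte markers Spp1 alone was tested, without a call. In bulk tissue, fewer cells of a type and less RNA per cell cannot be told apart. The higher immune genes Il1b, Il1a and Cd14 are expressed by macrophages, whose Kupffer marker sums are given above, and the part of cell numbers in these calls was not tested. RNA quality lists had 0 calls, with 13 mitochondrially encoded mRNAs at a median of -0.03 and 9 structural RNAs at 0.28. Among these Neat1 had 1.72, 1.35 and 2.27 FPKM with insulin against 3.19, 4.04 and 31.8 FPKM with PBS, where PBS replicate 3 stood far above the other libraries.

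Of the 207 called genes, 147 were on none of the lists. Those named here were picked after their values were seen. Rcan1, an inhibitor of calcineurin with the palindrome in a promoter window, had 23.9, 26.8 and 27.2 FPKM in the insulin libraries, against 5.72, 7.16 and 7.88 FPKM in the PBS libraries. Each group lay within a narrow range, and Rcan1 was higher by 1.78 ± 0.16 (SE, adjusted p = 1.44e-07). Noct, nocturnin, a phosphatase of NADPH with a daily rhythm, had 18.9, 23.5 and 24.2 FPKM with insulin against 7.94, 5.72 and 3.82 FPKM with PBS and was higher by 1.80 ± 0.31. Slc38a2, an amino acid transporter induced by hormones and amino acid lack, had 97.1, 142 and 112 FPKM with insulin against 45.4, 45.2 and 38.5 FPKM with PBS and was higher by 1.41 ± 0.24. Hcar2, the receptor of the ketone body beta-hydroxybutyrate, was near 0 with PBS and higher with insulin by 1.30 ± 0.16, at 1.10, 2.12 and 1.48 FPKM with insulin against 0.0639, 0.0146 and 0 FPKM with PBS. Amd1, the decarboxylase of polyamine synthesis, was higher by 0.77 ± 0.14, and so were the near-identical copies Amd2, Amd-ps3 and Amd-ps4, so the split of fragments among them is uncertain. On the lower side, Grb7, an adaptor that binds activated receptors, was lower, at -1.03 ± 0.14 (SE, adjusted p = 9.19e-05). Scap, which escorts SREBP proteins, was lower (-0.55 ± 0.13) at 16.9, 16.6 and 18.5 FPKM with insulin against 23.7, 29.1 and 24.8 FPKM with PBS, and H6pd, which makes NADPH in the endoplasmic reticulum, was lower too (-0.59 ± 0.13).

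Point 2 was then set against the points numbered next to it, with the same contrast tested for a difference between points. For 51 of 11938 genes (0.427%) the difference at point 2 departed from that at point 1, 40 upward and 11 downward, and 49 of these were among the 207 called at point 2. At point 1 itself 1 of the 11938 genes was called, Lpin1, which had no call at point 2. For Nr4a1 the departure was 4.77 ± 0.53 (SE, adjusted p = 3.59e-05), with group means at points 1 to 5 of 0.315, 57.7, 14.3, 2.22 and 0.966 FPKM with insulin and 0.260, 1.06, 0.684, 0.403 and 0.353 FPKM with PBS. The insulin mean was thus highest at point 2, and all 5 PBS means were at or below 1.06 FPKM. Rgs16 departed by -3.64 ± 0.67 (SE, adjusted p = 0.00881). Its means were 2.68, 1.78, 4.27, 32.4 and 45.4 FPKM with insulin and 5.41, 55.9, 39.9, 24.3 and 13.2 FPKM with PBS, so the PBS mean was far higher at point 2 than at point 1 while the insulin mean was not. Egr1 had 0.620, 3.22, 3.68, 6.73 and 4.56 FPKM with insulin and 1.33, 15.0, 6.41, 6.67 and 4.51 FPKM with PBS, also with its highest PBS mean at point 2, but its departure from point 1 did not pass, at -1.32 ± 0.63 (SE, adjusted p = 0.775).

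Between points 2 and 3 the calls overlapped. Of the 94 genes higher at point 2, 57 were also higher at point 3, which is 60.6% of the point 2 genes and 19.5% of the 293 higher at point 3 (2.45% of genes tested). Of the 113 lower, 68 were also lower at point 3, 60.2% of the point 2 genes and 6.7% of the 1017 lower at point 3 (8.52%). These comparisons use different libraries but share the estimate of the spread. For 11 genes (0.0921%) the difference itself departed between points 2 and 3, and 6 of them were among the 207. Efna1, Socs3 and Junb were higher at point 2 and not at point 3. The departures were 2.91 ± 0.47 (SE, adjusted p = 0.00657) for Efna1, 2.69 ± 0.46 (SE, adjusted p = 0.00815) for Socs3 and 2.74 ± 0.51 (SE, adjusted p = 0.0205) for Junb, and at point 3 Junb was lower with insulin, at -1.27 (adjusted p = 0.0273). Their insulin means were highest at point 2. The Efna1 means were 6.37, 36.6, 7.08, 6.93 and 7.23 FPKM with insulin and 7.51, 6.39, 9.59, 9.12 and 12.5 FPKM with PBS at points 1 to 5, and the Junb means 2.85, 28.0, 5.98, 9.15 and 8.29 FPKM with insulin and 4.21, 8.98, 15.4, 12.1 and 10.6 FPKM with PBS.

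Txnip and Angptl4 departed in the other direction, by -1.50 ± 0.22 (SE, adjusted p = 0.00385) and -1.21 ± 0.20 (SE, adjusted p = 0.00815), being lower at point 2 than at point 3 relative to PBS. Txnip means with insulin were 28.0, 11.5, 43.6, 185 and 163 FPKM, against 29.9, 43.8, 55.4, 56.5 and 44.4 FPKM with PBS, so the insulin mean was the lowest of the series at point 2 and above PBS at points 4 and 5. Angptl4 had 53.5, 22.8, 55.8, 86.5 and 86.8 FPKM with insulin against 72.6, 87.3, 90.1, 70.1 and 57.4 FPKM with PBS. Ppargc1a, the coactivator of gluconeogenesis and oxidation, showed no call at point 2 and departed by -2.88 ± 0.21 (SE, adjusted p = 4.96e-09). At point 2 it had 1.39, 1.17 and 1.31 FPKM in the insulin libraries, against 2.17, 1.61 and 1.40 FPKM in the PBS libraries, while its insulin mean at point 3 was 17.0 ± 3.57 FPKM against 1.85 ± 0.218 FPKM with PBS (SD, n = 3 each). Nr4a3 had a difference of 2.18 at point 2 and 2.53 at point 3, Rcan1 1.78 and 1.99, and Noct 1.80 and 1.94, and the test between points did not pass for these genes.

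**Figure D4:**
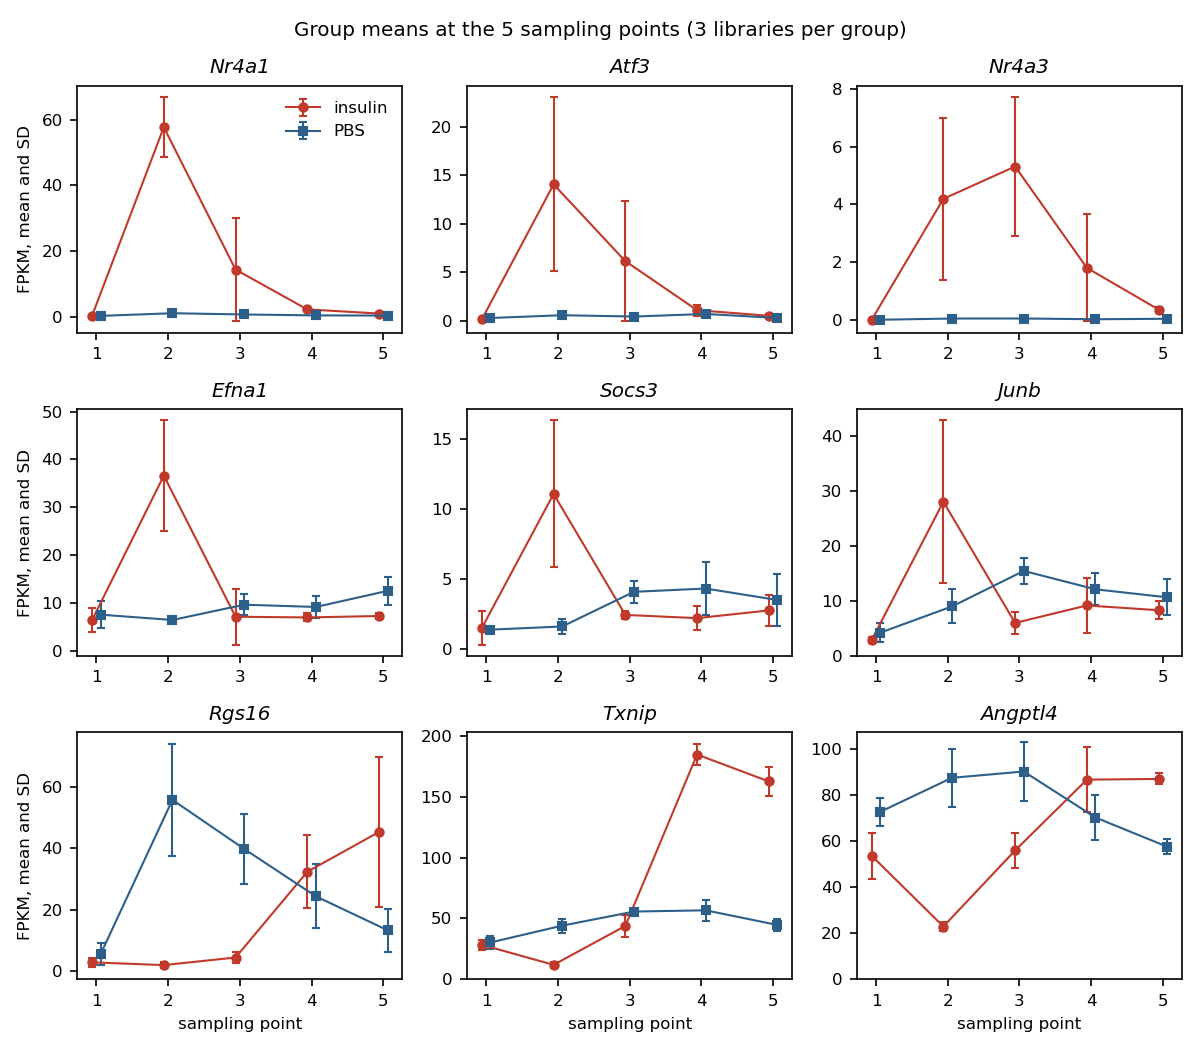
Mean FPKM with SD (3 libraries per group) at the 5 numbered sampling points for 9 genes, insulin as red circles and PBS as blue squares. Nr4a1, Atf3, Efna1, Socs3 and Junb have their highest insulin mean at point 2 and Nr4a3 at point 3, while Rgs16, Txnip and Angptl4 have their lowest insulin mean at point 2, at 1.78, 11.5 and 22.8 FPKM against 55.9, 43.8 and 87.3 FPKM with PBS.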

How the data were processed

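Poly(A) RNA of the left liver lobe was sequenced with a directional library kit, per the labels' protocols. The submitters' processing notes name HISAT2 2.1.0, SAMtools 1.9 and StringTie 2.0.3 and the build GRCm38 (mm10); for the annotation and the strand setting, the value used was not given in the sources used here. FPKM were deposited by the authors per gene for 29117 genes in 30 libraries, normalized by them to transcript length and mapped fragments, so no count test was run. No cell held exactly 0 and 32.18% held no value; these were set to 0. Depth is unknown: at best 44.04% to 49.19% of low values in the 6 libraries were whole reads within 0.05, so no reads were recovered. Between 19484 and 19972 genes had a value per library.

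The test covered the 11938 genes that reached FPKM 1 in 3 or more of the 6 libraries. A gene below 1 FPKM throughout a group could thus be tested only if the other group reached FPKM 1. Nr4a2, Nr4a3, Fosb, Atf3, Fst, Inhba and Hcar2 were among those that entered in this way through insulin, and list counts and medians include such genes. The log2(FPKM + 1) of the tested genes entered a limma 3.58.1 fit (R 4.3.3) of 10 group means over all 30 libraries. This leaves 20 residual degrees of freedom, with a variance trend on mean level. P-values were two-sided, adjusted by Benjamini-Hochberg over all genes tested at a threshold of 0.05, and measure the spread between these libraries. No pair of replicates shared more than 0.0754% of values.

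The genes named were the 6 insulin targets, the 12 highest and 12 lowest called genes whose groups did not overlap (mean of 1 FPKM or more, proper symbol), up to 4 called members per list (or the one nearest to a call), and the 6 highest and 6 lowest per test between points. Members of lists given only for their difference, and genes on no list, were named outside this rule after their values were seen. The members, the 46 gene lists and the motifs were chosen with earlier results of these data known. List symbols were matched to the table directly or through RefSeq synonyms (Cyr61 to Ccn1, Ctgf to Ccn2). Positions are those of GENCODE M21 on GRCm38, matched for 29066 gene IDs. Alternatives were a pseudocount of 0.1, other filters, median-ratio and quantile scaling, the replicate number as a block, series as a random effect, the 6 libraries alone, no intensity trend, and each library left out in turn. Several genes within the naming rule are omitted.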

Additional observations from a re-analysis of the deposited data

Results flagged for a closer look

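The difference between insulin and PBS at point 2 departed from that at point 1 or point 3, tested directly in limma over all genes, for the genes below. Sizes are the difference at point 2 minus that at the other point, on the log2(FPKM + 1) scale. Against point 1, the difference moved upward for the immediate early and cAMP-responsive genes: 4.77 for Nr4a1, 3.52 for Sik1, 3.28 for Atf3, 2.31 for Fosl2, 2.26 for Dusp1, 2.19 for Nr4a3, 2.05 for Fos, 1.89 for Fosb, 1.78 for Csrnp1, 1.76 for Sgk1 and 1.48 for Ccn1. It also moved upward by 2.84 for Noct, 2.69 for Plk3, 2.52 for Efna1, 2.35 for Irs2, 2.16 for Socs3, 1.82 for Nfil3, 1.59 for Per1 and 1.56 for Trp53inp1. It was negative, at -3.64 for Rgs16, -2.58 for Osgin1, -1.98 for Depp1, -1.76 for Txnip, -1.67 for Klf10, -1.44 for Angptl4 and -0.77 for Pdp2. Adjusted p-values of these lay between 3.59e-05 for Nr4a1 and 0.0466 for Irs2.

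Against point 3, the difference was larger by 2.91 for Efna1, 2.74 for Junb and 2.69 for Socs3. It was smaller, at -2.88 for Ppargc1a, -1.50 for Txnip, -1.37 for Reps1, -1.21 for Angptl4, -1.17 for Raph1 and -1.17 for Lclat1. Ppargc1a, Reps1, Raph1 and Lclat1 had no call at point 2, where their differences were -0.24, -0.02, 0.20 and -0.14, and were higher with insulin at point 3 by 2.64, 1.35, 1.37 and 1.03. The point 1 comparison shares no library with that of point 2. The lanes were the same at both points, 2, 1 and 2 for insulin replicates 1, 2 and 3 and 3, 4 and 5 for PBS. An effect of lane was not tested.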

How the results depend on the processing

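The number of genes that differed was 207 and lay between 139 and 239 under a pseudocount of 0.1, the other filters, the scalings, a random effect of series, the 6 libraries alone and no intensity trend, with the exceptions that follow. Without a filter 137 genes differed, 66 of them lower, and 29 departed from point 1. A filter at a mean of 5 FPKM left 61 higher genes. Median-ratio scaling gave 153 higher and 58 lower genes, and quantile normalization 158 higher. The 6 libraries alone gave 63 lower genes. Without the insulin libraries of replicate number 1 at all points, 126 genes differed, 40 of them lower, and 32 departed from point 1. Leaving out each of the 6 libraries in turn gave 81 to 500 genes that differed, 46 to 105 higher, 30 to 395 lower, 24 to 47 that departed from point 1 and 8 to 13 that departed from point 3, against 11 with all libraries. Over both directions the fewest genes differed without insulin replicate 2 and the most without PBS replicate 1, and the cause was not tested. No gene called in the full comparison changed direction under any alternative. Of 61 named genes with a call, 32 kept it under every alternative.

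Correlations of deviations between insulin and PBS libraries of the same replicate number were -0.114, -0.0033 and 0.028. With the replicate number as a block 476 genes differed, 120 higher and 356 lower, and all 207 calls were among them. So few correlations cannot decide whether the numbers pair the samples, and no conclusion is drawn. FPKM without depth limits what can be said of genes near 1 FPKM, whose counting error is unknown.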

Other observations

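The genes below were called, stood on none of the lists and were picked after their values were seen. Dhx58, an RNA helicase of the RIG-I family, had 0.696, 0.910 and 1.44 FPKM with insulin against 1.66, 3.17 and 4.40 FPKM with PBS, Trim14, an adaptor of antiviral signalling at mitochondria, 3.15, 2.17 and 3.01 FPKM with insulin against 4.09, 8.57 and 6.86 FPKM with PBS, and Ticam1, the adaptor of the receptor TLR3, 1.03, 1.32 and 1.91 FPKM with insulin against 2.91, 2.99 and 3.85 FPKM with PBS. Their differences were -0.97 ± 0.23, -0.95 ± 0.21 and -0.82 ± 0.14, and that of Irgm2, an interferon-induced GTPase, was -0.86 ± 0.22 (limma, adjusted p = 0.0274, 0.014, 0.00143 and 0.0448). Cd14, a coreceptor for bacterial lipopolysaccharide, and Il1a, interleukin 1 alpha, were higher, at 1.08 ± 0.20 and 0.92 ± 0.24 (limma, adjusted p = 0.00349 and 0.0431).

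Also higher were Tiparp, an ADP-ribosyltransferase known as a target of the aryl hydrocarbon receptor, at 5.33, 14.5 and 7.04 FPKM with insulin against 1.92, 1.2 and 1.43 FPKM with PBS, and Coq10b, a coenzyme Q binding protein of mitochondria, at 24.0, 45.1 and 29.1 FPKM with insulin against 12.1, 9.47 and 7.68 FPKM with PBS. Wsb1, a ubiquitin ligase subunit whose promoter window holds the full CREB palindrome, had 19.2, 26.8 and 19.4 FPKM with insulin against 5.53, 5.54 and 4.82 FPKM with PBS, and Rasgef1b, an exchange factor of Ras proteins, 28.5, 37.6 and 36.4 FPKM with insulin against 7.72, 7.41 and 8.37 FPKM with PBS. The differences were 1.89 ± 0.43 for Tiparp, 1.62 ± 0.29 for Coq10b, 1.84 ± 0.38 for Wsb1 and 1.98 ± 0.28 for Rasgef1b (limma, adjusted p = 0.0191, 0.00194, 0.0098 and 0.000119). The groups did not overlap for any of these genes.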
